A study of Arabidopsis thaliana with 2 samples.

Results

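The genes described here are 10 Arabidopsis thaliana genes of chlorophyll synthesis and its regulation, chosen by name: the transcription factor genes GLK1 (AT2G20570) and GLK2 (AT5G44190) and the genes of enzymes and an enzyme activator HEMA1 (AT1G58290), GUN5 (AT5G13630), GUN4 (AT3G59400), CHLM (AT4G25080), CRD1 (AT3G56940), PORB (AT4G27440), PORC (AT1G03630) and CAO (AT1G44446). All 10 were among the 11666 genes of the deposited expression table. The table compares whole seedlings of the ago1-36 line, in which the gene ARGONAUTE1 (AGO1) is mutated, with wild-type seedlings. Both were grown for 12 days at 23 °C on plates of Murashige and Skoog medium with 3% sucrose, under 16 h of light and 8 h of darkness. The labels give no further detail of the ago1-36 allele or of the background strain. Each genotype was measured in 1 RNA-seq library. The read totals were estimated here from the table, at about 13590000 for ago1-36 and 13670000 for the wild type. No difference was checked against replicates, and no p-value is given.

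Plants make chlorophyll in plastids from glutamate. A common trunk of enzymes leads to protoporphyrin, which either receives iron and becomes haem or receives magnesium and enters the chlorophyll branch. That branch ends with the light-requiring reduction of protochlorophyllide and the making of chlorophyll b from chlorophyll a. GLK1 and GLK2 are a pair of partly redundant transcription factors that switch on genes of this branch and of the light-harvesting antenna. AGO1 carries microRNAs to the transcripts they silence.

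Levels are RPKM, reads per kilobase of gene scaled to library depth, as the authors deposited them. Ratios of single genes are plain RPKM ratios of ago1-36 over the wild type with a 95% Clopper-Pearson interval on reads recovered from the table. The intervals cover counting error only and not variation between seedlings or library preparations. Differences on the log2 scale use RPKM plus 1. Genes under 1 RPKM in both libraries were set aside, which left 11373 kept genes. A difference of 2-fold on the log2 scale was the limit for counting a gene. AGO1, the mutated gene, had 5.59 RPKM in ago1-36 and 48.6 RPKM in the wild type.

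Of the 10 genes, 8 were lower in ago1-36 and 2, HEMA1 and PORB, were higher. Among all kept genes, 51.5% were lower by any amount. PORC alone (1 of 10) was at least 2-fold lower, against 8.38% of all kept genes. None of the 10 was at least 2-fold higher, against 19.6% of all kept genes. The median log2 ratio of the 10 genes was -0.54, and that of all kept genes was -0.04. A set of 3819 genes averaged 25 RPKM or more over both libraries, a level range closer to that of the 10 genes. Of this set, 7.07% were at least 2-fold lower, 14.8% at least 2-fold higher and 52.8% lower by any amount. No listed gene had a score of 0 in the GFOLD column of the authors' deposited table, a conservative form of the log2 fold change. Kept genes with a log2 ratio from 0.1 to 0.3 numbered 38, against 1381 from -0.3 to -0.1. The authors' log2 fold change lies 0.19 lower over all genes than the log2 ratio used here, so its 0 falls between 0.1 and 0.3 here. Genes with little difference on the authors' scale may thus be underrepresented among the listed genes. The 2 counts therefore do not show that slightly higher genes were scarce in the seedlings. The shares and the median of all kept genes describe the listed genes only.

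The 5 promoter windows printed here belong to the genes that depart from the common direction, PORB and HEMA1, and to the other members that hold the hexamer CCAATC, which has been reported as enriched in promoters of GLK-regulated genes. Each window runs from 250 bases before to 50 bases after the gene start of the RefSeq annotation of TAIR10.1 and is printed 5′ to 3′ on the gene's strand. Capitals mark a match to any of the motifs searched, on either strand. The windows are chr5:4392380-4392679 (minus strand) for GUN5, chr3:21949747-21950046 (minus strand) for GUN4, chr4:13725296-13725595 (plus strand) for PORB, chr1:907273-907572 (plus strand) for PORC and chr1:21626353-21626652 (minus strand) for HEMA1.
GUN5: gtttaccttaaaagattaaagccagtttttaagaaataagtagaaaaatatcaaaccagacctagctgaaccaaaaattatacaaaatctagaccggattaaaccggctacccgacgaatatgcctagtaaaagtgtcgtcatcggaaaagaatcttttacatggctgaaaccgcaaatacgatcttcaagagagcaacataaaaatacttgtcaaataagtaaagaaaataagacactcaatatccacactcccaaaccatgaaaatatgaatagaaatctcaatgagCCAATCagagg
GUN4: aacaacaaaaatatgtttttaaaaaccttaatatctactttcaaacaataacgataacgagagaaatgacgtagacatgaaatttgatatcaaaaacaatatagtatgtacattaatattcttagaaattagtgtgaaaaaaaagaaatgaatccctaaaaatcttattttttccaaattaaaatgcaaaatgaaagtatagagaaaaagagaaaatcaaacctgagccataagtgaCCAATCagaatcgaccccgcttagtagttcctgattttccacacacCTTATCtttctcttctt
PORB: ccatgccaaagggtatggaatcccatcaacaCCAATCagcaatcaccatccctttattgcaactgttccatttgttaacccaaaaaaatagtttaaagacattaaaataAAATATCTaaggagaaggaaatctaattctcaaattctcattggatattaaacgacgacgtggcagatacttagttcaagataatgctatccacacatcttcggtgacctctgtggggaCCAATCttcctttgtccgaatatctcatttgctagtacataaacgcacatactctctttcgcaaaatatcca
PORC: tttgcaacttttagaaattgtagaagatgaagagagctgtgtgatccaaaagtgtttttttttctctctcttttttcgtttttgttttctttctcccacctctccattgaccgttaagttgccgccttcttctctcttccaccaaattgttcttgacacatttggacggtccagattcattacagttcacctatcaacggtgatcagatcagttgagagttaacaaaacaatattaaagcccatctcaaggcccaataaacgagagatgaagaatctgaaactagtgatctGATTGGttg
HEMA1: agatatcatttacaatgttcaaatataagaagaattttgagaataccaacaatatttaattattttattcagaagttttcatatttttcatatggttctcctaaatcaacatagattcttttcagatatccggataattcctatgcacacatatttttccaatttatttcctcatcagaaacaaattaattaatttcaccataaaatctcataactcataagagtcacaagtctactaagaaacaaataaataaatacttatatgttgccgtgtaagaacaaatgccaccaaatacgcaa

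CCAATC or its reverse complement stood in 4 of the 10 windows, against 12.3% of the 27443 windows of protein-coding nuclear genes. It was found once in GUN5, GUN4 and PORC and at 2 places in PORB. The matches of GUN5 and PORC lay downstream of the gene start, from base 40 and base 42 of the gene. Those of GUN4 (13 bases before the start) and PORB (219 and 22 bases before) lay upstream. PORB and PORC both hold CCAATC or its reverse complement and differed in opposite directions, as given in the account of these genes. The G-box CACGTG stood in 2 of the 10 windows (CRD1 and CAO), against 7.68% of all windows. The I-box GATAAG stood in 3 (GLK1, GUN4 and CAO), against 14.6%, and the evening-element core AAATATCT in 1 (PORB), against 5.65%. Both strands were searched for each motif, and none of the motifs overlapped another in the printed windows. The windows of HEMA1, GLK2 and CHLM held no match, which says only that these letters are not in these windows. A match describes the sequence and is not evidence of a bound site.

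The pair of GLK genes was lower in ago1-36 by similar amounts. GLK1, named GPRI1 in the annotation, lies at chr2:8855302-8857758 on the plus strand and had 58.5 RPKM in ago1-36 and 88.0 RPKM in the wild type (ratio 0.665, interval 0.620 to 0.713). GLK2, at chr5:17798262-17800926 on the plus strand, had 60.7 RPKM in ago1-36 and 83.8 RPKM in the wild type (ratio 0.725, interval 0.672 to 0.782). Their intervals overlap. The level of GLK1 over that of GLK2 was 0.964 in ago1-36 and 1.05 in the wild type, a fold of 0.917 between libraries with a counting interval of 0.828 to 1.02, so the balance of the pair could not be told apart at this depth. Summed, the pair had 119 RPKM in ago1-36 and 172 RPKM in the wild type.

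HEMA1 encodes glutamyl-tRNA reductase, the enzyme that commits glutamate to tetrapyrrole synthesis and a main control point of the pathway. It lies at chr1:21623700-21626402 on the minus strand and had 241 RPKM in ago1-36 and 131 RPKM in the wild type. The ratio was 1.83 (interval 1.76 to 1.91) and the log2 ratio 0.87, above that of 76.5% of kept genes. HEMA1 thus stood higher in ago1-36 at the entry of the pathway, while GUN5, GUN4, CHLM and CRD1, which act further along, stood lower.

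GUN5 encodes CHLH, the large subunit of magnesium chelatase, which inserts magnesium into protoporphyrin, and GUN4 binds porphyrins and stimulates that enzyme. GUN5, at chr5:4387307-4392429 on the minus strand, had 523 RPKM in ago1-36 and 772 RPKM in the wild type (ratio 0.678, interval 0.668 to 0.688). GUN4, at chr3:21948501-21949796 on the minus strand, had 171 RPKM in ago1-36 and 247 RPKM in the wild type (ratio 0.691, interval 0.655 to 0.729). The intervals of GUN5, GUN4, GLK1 and GLK2 all overlap each other.

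CHLM, a methyltransferase, and CRD1, also called CHL27, a subunit of the cyclase that closes the fifth ring, act next. CHLM, at chr4:12876822-12878703 on the plus strand, had 136 RPKM in ago1-36 and 258 RPKM in the wild type (ratio 0.529, interval 0.506 to 0.553), a log2 ratio of -0.91. CRD1, at chr3:21076505-21078443 on the plus strand, had 698 RPKM in ago1-36 and 1196 RPKM in the wild type (ratio 0.583, interval 0.571 to 0.596), a log2 ratio of -0.78. CRD1 was the most abundant of the 10 genes in both libraries, ranking 82 in ago1-36 and 40 in the wild type among all listed genes. Its gene model overlaps that of AT3G56950 (SIP2;1) on the opposite strand by 147 bases, and SIP2;1 had 364 RPKM in ago1-36 and 633 RPKM in the wild type. The strand setting of the counting is not given in the sources used here, so reads of the overlap cannot be told apart and the value of CRD1 is uncertain.

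PORB and PORC encode protochlorophyllide oxidoreductases, the light-requiring step, and were the members with the lowest levels in ago1-36. PORC, at chr1:907523-909650 on the plus strand, had 21.3 RPKM in ago1-36 and 71.4 RPKM in the wild type, from 403 and 1363 reads. PORC was 3.36-fold lower in ago1-36 (interval 3.01 to 3.77), and only 2.29% of kept genes had a lower log2 ratio. PORB, at chr4:13725546-13727440 on the plus strand, had 32.0 RPKM in ago1-36 and 24.1 RPKM in the wild type, from 676 and 513 reads (ratio 1.33, interval 1.18 to 1.49). The GFOLD score of PORB in the authors' deposited table was 0.025, smaller in size than that of all but 4.52% of listed genes. PORB thus made up 60.1% of the summed level of the pair in ago1-36 and 25.3% in the wild type. The ratio of PORB to PORC was 1.505 in ago1-36 and 0.338 in the wild type, a fold of 4.45 (counting interval 3.80 to 5.22). Like the other ratios of related genes given here, this pair was set up with values of these data known. No value of PORA, the third gene of this family, was used here.

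**Figure D1:**
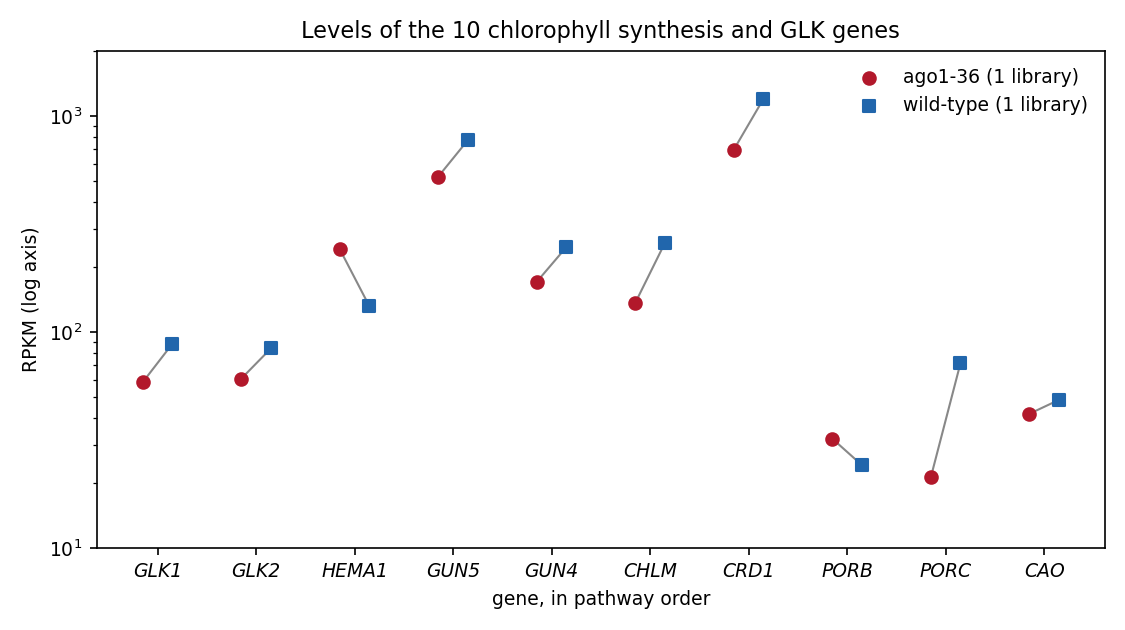
RPKM of the 10 genes in ago1-36 (red circles, left) and the wild type (blue squares, right), 1 library each, on a log axis. CRD1 and GUN5 were highest in both libraries, and the points of PORB and PORC change order between the genotypes.

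CAO makes chlorophyll b from chlorophyll a and lies at chr1:16848308-16851271 on the minus strand. It had 41.7 RPKM in ago1-36 and 48.4 RPKM in the wild type (ratio 0.862, interval 0.799 to 0.932), and its log2 ratio of -0.21 was the nearest to 0 among the 10 genes on this scale. On the log2 fold change given in the authors' deposited table, PORB (0.22) was nearer to 0 than CAO (-0.40). Summed over the 10 genes, the level was 1983 RPKM in ago1-36 and 2920.1 RPKM in the wild type, or 0.369% and 0.536% of all listed RPKM. GUN5 and CRD1 together held 61.6% of that sum in ago1-36 and 67.4% in the wild type.

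**Figure D2:**
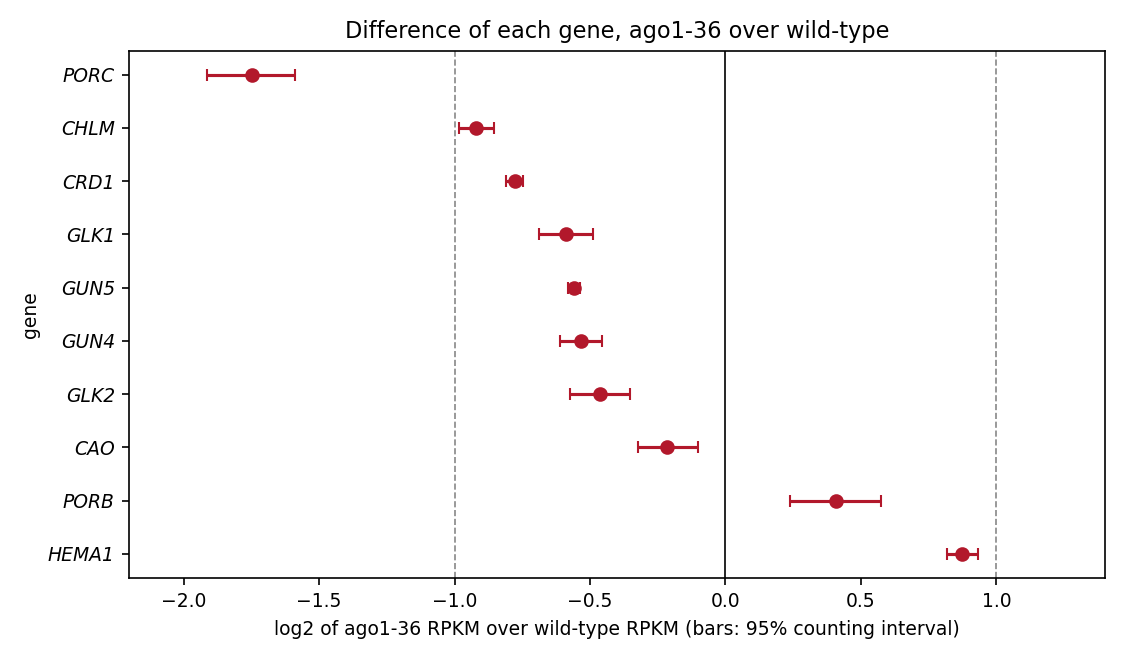
Log2 of the plain RPKM ratio of ago1-36 over the wild type for the 10 genes, 1 per line in order of the ratio, with the 95% counting interval as bars and dashed lines at 2-fold. HEMA1 and PORB lie above 0, and PORC, with a ratio of 0.298, is past the 2-fold line.

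The members that overlap an annotated gene on the opposite strand are GUN4, CHLM, CRD1, PORB, PORC and CAO. Of these neighbours, only AT3G56950, which overlaps CRD1, is in the table. CRD1 also overlaps the long non-coding RNA gene AT3G08795, by 259 bases. GUN4 overlaps its neighbour AT3G59410 by 946 of its 1296 bases (73.0%). For the others, the largest overlap of each was from 36 to 259 bases. With the use of strand in counting unknown, the values of all 6 are uncertain, and those of GUN4 over the largest share of the gene. No 50-base stretch of any member's exons occurs elsewhere in the genome.

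Other genes of the pathway were read from lists drawn up with these results known, so their counts describe the libraries and support nothing by themselves. For each list, the shares of all kept genes to set beside its counts are 51.5% lower by any amount, 8.38% at least 2-fold lower and 19.6% at least 2-fold higher. In all these lists, the named genes that are not kept had no value used here, except HEMA3 of the common trunk. HEMA3 was under 1 RPKM in both libraries and was set aside. Of the 16 genes named for the common trunk, 13 had a value and 12 were kept. These 12 were mostly lower (11 of 12, median -0.30). HEMA2, a paralogue of HEMA1, was the exception, with 34.0 RPKM in ago1-36 and 7.61 RPKM in the wild type (4.47-fold, interval 3.86 to 5.20). HEME2 was the lowest of the list, with 60.1 RPKM in ago1-36 and 104 RPKM in the wild type, a log2 ratio of -0.78. The ratio of HEMA1 to HEMA2 was 7.08 in ago1-36 and 17.3 in the wild type (fold 0.410, counting interval 0.353 to 0.478). GSA1 over GSA2, the next enzyme of the trunk, was 2.04 in ago1-36 and 1.43 in the wild type (fold 1.42, counting interval 1.295 to 1.56).

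Of the other genes of the chlorophyll branch, all 9 kept genes of 10 were lower (median -0.40), none of them 2-fold. They ranged from CHLI2, a magnesium chelatase subunit, with 14.1 RPKM in ago1-36 and 27.8 RPKM in the wild type (-0.93), to CHLG, the chlorophyll synthase, with 46.1 RPKM in ago1-36 and 51.0 RPKM in the wild type (-0.14). The ratio of CHLI1 to CHLI2 was 17.2 in ago1-36 and 11.5 in the wild type (fold 1.49, counting interval 1.29 to 1.73). In the haem, bilin and sirohaem branches, 3 of 5 kept genes of 9 were higher, against 5521 of all 11373 kept genes. FC1, a ferrochelatase, which inserts iron into protoporphyrin, had 102 RPKM in ago1-36 and 18.5 RPKM in the wild type (5.55-fold, interval 5.06 to 6.11). FC2, the other ferrochelatase, was lower, with 60.5 RPKM in ago1-36 and 90.3 RPKM in the wild type. The ratio of FC2 to FC1 was therefore 0.591 in ago1-36 and 4.89 in the wild type (fold 0.121, counting interval 0.108 to 0.135).

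**Figure D3:**
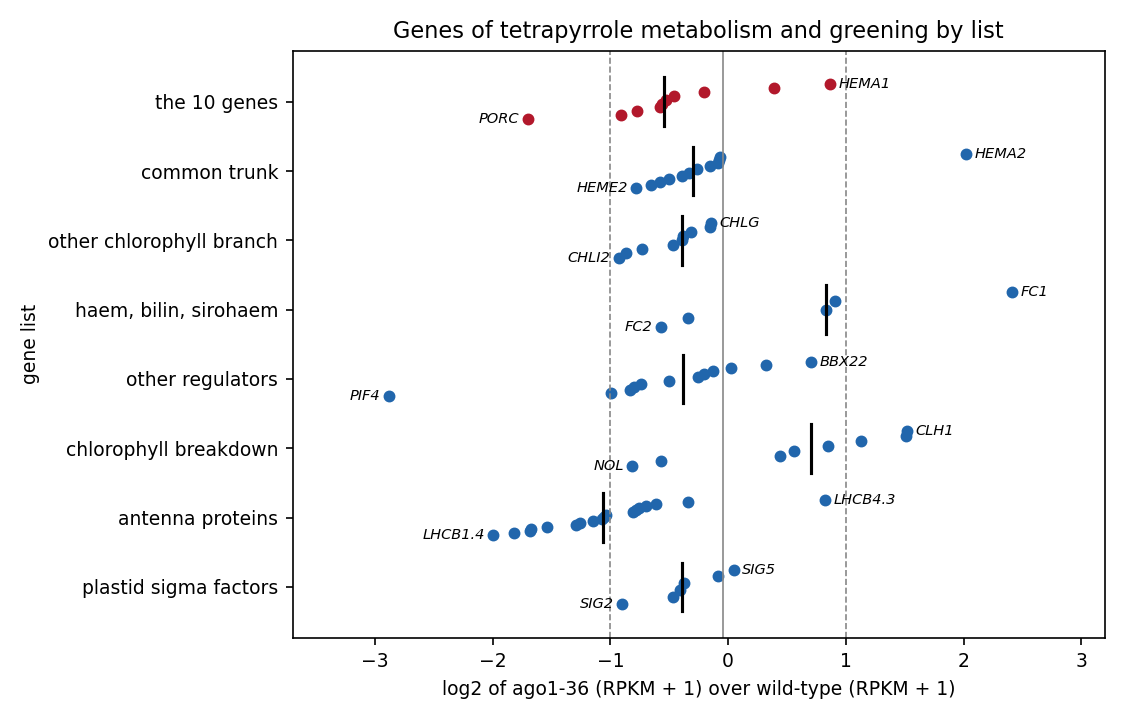
Log2 ratio between ago1-36 and the wild type, with 1 added to each RPKM, for each kept gene of the 10 (red) and of 7 pathway lists (blue), 1 point a gene, with each list's median as a black bar, dashed lines at 2-fold and a grey line at the median of all genes. The antenna list has the lowest median of those drawn, -1.06, and the haem and breakdown lists have medians above 0.

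Among 12 kept of 20 other regulators of greening, 9 were lower in ago1-36 (median -0.38). PIF4, a phytochrome-interacting factor, was 12.1-fold lower (interval 8.44 to 18.0), with 1.34 RPKM in ago1-36 and 16.3 RPKM in the wild type from 32 and 390 reads. BBX22, a B-box factor of light signalling, had the highest ratio of the list, with 4.24 RPKM in ago1-36 and 2.21 RPKM in the wild type (0.71).

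In the chlorophyll breakdown list, 6 of 8 kept genes of 11 were higher (median 0.70), 3 of them past 2-fold. The whole set of 11373 kept genes held 5521 higher ones, of which 2228 were past 2-fold. Whether the 8 genes differ as a group from that set was not tested. CLH1, a chlorophyllase, had 63.0 RPKM in ago1-36 and 21.3 RPKM in the wild type (2.96-fold, interval 2.63 to 3.34). CLH2 had 8.29 RPKM in ago1-36 and 3.24 RPKM in the wild type, also past 2-fold. SGR2 was past it too, with 3.06 RPKM in ago1-36 and 0.426 RPKM in the wild type from 50 and 7 reads. NOL, a chlorophyll b reductase, was lower, with 4.11 RPKM in ago1-36 and 7.99 RPKM in the wild type (-0.82).

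Of 18 genes for chlorophyll-binding antenna proteins, 17 were lower (median -1.06), against 51.5% of all kept genes. Past 2-fold were 11, against 8.38% of all kept genes: LHCA1, LHCA3, LHCA4, LHCB1.1, LHCB1.2, LHCB1.4, LHCB1.5, LHCB3, LHCB4.2, LHCB5 and LHCB6. The lowest was LHCB1.4, with 29.9 RPKM in ago1-36 and 123 RPKM in the wild type. Only LHCB4.3 was higher, with 16.3 RPKM in ago1-36 and 8.78 RPKM in the wild type. The summed level was 8478 RPKM in ago1-36 and 17552 RPKM in the wild type (ratio 0.483), against 0.679 for the 10 synthesis genes. Near-identical antenna genes may share reads, so their single values are uncertain. CCAATC stood in the windows of 11 of these 18 genes and of 2 of 26 other pathway genes, against 12.3% of all windows.

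Of 6 sigma factors, which direct the plastid RNA polymerase, 5 were lower (median -0.39). They ranged from SIG2, with 49.5 RPKM in ago1-36 and 93.3 RPKM in the wild type (-0.90), to SIG5, with 149.97 RPKM in ago1-36 and 145 RPKM in the wild type (0.05). The counting interval of the SIG5 ratio, 0.993 to 1.08, includes 1, and its sign was negative under 2 of the alternatives.

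**Figure D4:**
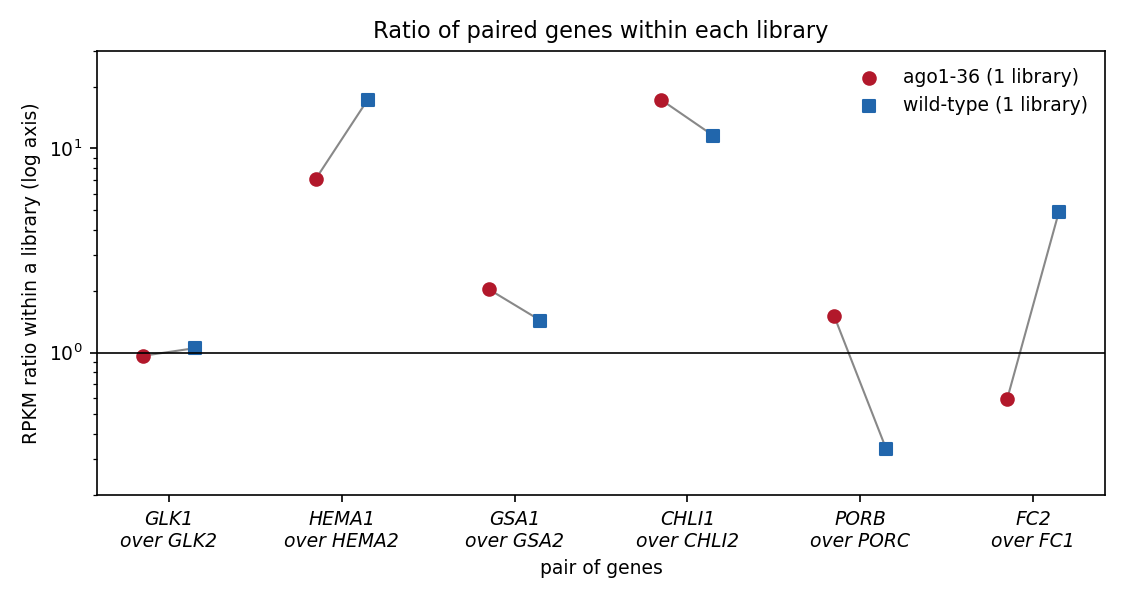
RPKM ratio between related genes within ago1-36 (red circles) and within the wild type (blue squares), on a log axis. Of the 6 pairs, the POR and ferrochelatase pairs differ most between the libraries, and the GLK pair differs least.

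Markers of cell types were lower too, where 51.5% of all kept genes were lower and 8.38% at least 2-fold lower. All 6 mesophyll markers were lower in ago1-36, 5 of them past 2-fold (RBCS2B, RBCS1B, RBCS3B, CA1 and RCA). They ranged from RBCS2B at -1.92 to RBCS1A at -0.54, with a summed level 0.411 times that of the wild type. Whether the related RBCS genes share reads was not checked, so their single values are uncertain. All 5 kept root and root hair markers of 7 were lower, 4 past 2-fold (PRP3, LRX1, EXPA7 and EXPA18), from PRP3 at -2.60 to LRL3 at -0.72, and summed to 9.46 RPKM in ago1-36 and 43.8 RPKM in the wild type. The 5 epidermis markers (PDF2 at -0.87 to CER6 at -0.13) and the 4 kept vascular markers of 5 (SUC2 at -0.96 to AHA3 at -0.39) were lower, none past 2-fold. No marker with a value used here was at 0 in either library. In bulk seedlings, fewer cells of a type and less RNA per cell cannot be told apart, and the part of these markers in the differences of the synthesis genes was not tested.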

How the data were processed

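Total RNA of whole seedlings was isolated with TRIzol, and libraries followed the SMART method, per the labels' protocols. The submitters' processing notes list TopHat2 2.0.11 and TAIR10. How reads were counted per gene, and whether strand was used, is not given in the sources used here. The authors' deposited table holds an RPKM value per gene and library, a log2 fold change of ago1-36 over the wild type and a GFOLD score, per the file headers. It has 11957 gene lines, of which 291 repeats were dropped, leaving 11666 genes; 2 fragment lines were not used.

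The log2 ratio used here adds 1 RPKM to each library, which understates differences of low genes. Reads were recovered from RPKM with the authors' deposited log2 fold change, which gives a ratio of library totals of 0.994. Of 2018 genes under 100 reads, 2016 came out whole within 0.1. Larger read numbers and the library totals are estimates, and 13 genes gave no read number. Names, coordinates and promoter windows come from RefSeq's TAIR10.1, read with Python 3.11.15 and pandas 2.3.3. The steps were tested on simulated data.

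With 1 library per genotype no test was possible. The text names all 10 genes, AGO1 as a check of the labels, and of every other list the genes with the highest and lowest ratio and those past 2-fold. Intervals of ratios between related genes are normal ones on the log scale. The 10 genes and the lists were chosen with earlier results of these data known. Alternatives were no filter or one at 5 RPKM, a pseudocount of 0.1 or 0.5, 3 rescalings, the authors' deposited log2 values, and leaving out overlapping genes.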

Additional observations from a re-analysis of the deposited data

How the results depend on the processing

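All 10 genes kept the sign of their ratio under every one of the 9 alternatives in which they could be computed, and PORC was at least 2-fold lower in each. CRD1 could not be computed when overlapping genes were left out. With the fold changes in the authors' deposited table (log2), 2 of the 10 genes were at least 2-fold lower, CHLM (-1.10) joining PORC. Of all kept genes, 15.7% were at least 2-fold lower on that scale, against 8.38% with the main measure. The median of the 10 was -0.73 there, against a median of -0.23 for all genes. That scale lies 0.19 lower over all genes, and 55.7% of its 2-fold calls were higher, against 70.0% with the main measure. The median of the 10 genes was -0.47 after rescaling by the median of ratios, and -0.61 after rescaling to 1000000 with organelle genes and the 50 most abundant ones left out. In the other lists, the genes at least 2-fold lower numbered 1 among the regulators of greening and 1 to 4 under the alternatives, 4 being on the authors' deposited scale. For the chlorophyll branch, main and largest counts were 0 and 2; for the common trunk, breakdown, sigma factor, epidermis and vascular lists, 0 and 1. Leaving out overlapping genes left fewer genes: 6 antenna genes instead of 11 and 3 mesophyll markers instead of 5 were then at least 2-fold lower. Lower by any amount were then 10 antenna, 7 trunk and 5 chlorophyll branch genes instead of 17, 11 and 9, and a filter of 5 RPKM left 3 root markers instead of 5. The median of all genes, -0.04 with the main measure, was 0.03 after rescaling by the median of ratios, where 48.6% of genes were lower against 51.5%. Of the kept genes in the lists, 3 with ratios near 0 changed sign: FLU (-0.07) was 0.01 after that rescaling; SIG5 (0.05) was -0.02 and COP1 (0.02) was -0.05 without organelle and abundant genes, and -0.14 and -0.16 in the authors' deposited table. The cause of the other differences was not tested. No paired analysis was possible because each genotype had 1 library, and no library could be left out.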
